A study of Sus scrofa with 10 samples.

Results

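RNA of heat shock proteins and co-chaperones was followed in aortic valve leaflets of female swine on an Affymetrix porcine array, on which a probe set, a group of short probes, reads a transcript. The members were the genes with exactly 1 symbol in the array annotation whose symbol starts with HSPA, HSPB, HSPD, HSPE, HSPH, HSP90, DNAJ or HSF, or with CCT or BAG followed by a digit. This gave 57 of the 6765 genes on the array that carry exactly 1 symbol, and each gene was read from its brightest probe set, by the mean of the 10 arrays. Adult Rapacz familial hypercholesterolemic (RFH) swine, a breed with inherited high blood cholesterol, were 2 years old (4 arrays), and juvenile RFH swine were 3 months old (3 arrays). Juvenile wild-type (WT) animals were 3-month-old Rapacz Wisconsin Miniature Swine without the RFH trait (3 arrays). The diet was standard chow for all, and RNAlater took up the leaflets in the hour after death. No adult WT group was analysed here, so age and the course of the disease cannot be told apart in adult RFH against juvenile RFH leaflets. Whether the arrays of a group are separate animals is not in the labels, and the p-values measure the spread between arrays, which may be partly technical.

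Chaperones bind unfolded proteins and help them fold, hold them in solution or pass them on for destruction. HSP70 proteins (HSPA genes) work in cycles of ATP binding and release. J proteins (DNAJ genes) bring clients to HSP70 and start ATP hydrolysis, and nucleotide exchange factors such as the BAG proteins, HSPBP1 and the HSP110 proteins (HSPH1, HSPA4) reset it. HSP90 finishes the folding of kinases and steroid receptors, small heat shock proteins (HSPB genes) hold unfolded clients, and the chaperonin CCT folds actin and tubulin inside a closed chamber. Some of these genes are always on, while others are switched on by heat shock factor 1 (HSF1) when unfolded proteins build up. The members were therefore put into groups by role, with 9 heat-inducible genes set against 7 constitutive genes of the cytosolic HSP70 and HSP90 systems. Each member was put in a single group. The mitochondrial and endoplasmic reticulum groups, HSPD1 and HSPE1 among them, were not split into inducible and constitutive genes.

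The leaflet samples carried the markers of valve interstitial cells, the fibroblast-like cells of the leaflet. The mean of 7 such markers, VIM, DCN and LUM among them, was 11.49 to 11.95 (log2) for adult RFH, 12.12 to 12.18 for juvenile RFH and 12.21 to 12.27 for juvenile WT arrays. Of these 7 markers 2 fell in adult against juvenile RFH leaflets, and so did 1 of 5 smooth muscle markers. Of 6 macrophage markers 3 rose, and of 8 endothelial markers 1 did. Over all genes 11.4% rose and 7.85% fell. The valve interstitial, macrophage and red cell marker means did not overlap between adult and juvenile RFH arrays, and the endothelial and smooth muscle means did. The mean of 6 macrophage markers was 10.86 to 11.55 in adult RFH, against 10.47 to 10.53 in juvenile RFH and 9.90 to 10.02 in juvenile WT arrays. The mean of 8 endothelial markers was 8.61 to 9.60 in adult RFH, against 8.50 to 8.80 in juvenile RFH and 8.05 to 8.40 in juvenile WT arrays. The mean of 3 red cell markers was 6.28 to 7.24 in adult RFH, against 7.56 to 8.48 in juvenile RFH and 6.83 to 7.34 in juvenile WT arrays, and 2 of the 3 fell in adult against juvenile RFH leaflets. In whole leaflets, fewer cells of a type and less RNA per cell cannot be told apart, and the part of these shifts in the results was not tested. Juvenile RFH replicate 2 held cardiac muscle transcripts, with a mean of 8.22 over 16 markers, where replicates 1 and 3 had 5.36 and 5.63, and 4 of the 16 markers lay below the array median on all arrays. The 12 poly-A control probe sets, which read RNA added to each sample, averaged 7.66 ± 0.20 (SD, n = 4) for adult RFH, 6.84 ± 0.01 (SD, n = 3) for juvenile RFH and 7.07 ± 0.06 (SD, n = 3) for juvenile WT arrays. They were highest in the adult group. The 3' minus 5' difference of the control genes, a sign of RNA integrity, was on the log2 scale 1.75, 2.25, 2.84 and 2.12 on adult RFH arrays, against 2.11 to 2.38 on juvenile RFH and 1.99 to 2.18 on juvenile WT arrays, so that adult replicates 1 and 3 lay at the ends. The part of either in the results was not tested, and no batch or scan date is given in the labels.

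In adult RFH leaflets 20 of the 57 members rose against juvenile RFH leaflets and none fell, while 37 did not pass the test. Over all 6765 genes 11.4% rose and 7.85% fell. Rose and fell are written for a Benjamini-Hochberg adjusted p under 0.05 over all 23999 probe sets in limma's moderated test. The median difference of the members was 0.24 on the log2 scale, against 0.02 for all genes, and 46 of 57 differences were positive, against 3559 of 6765. At a threshold of at least 2-fold in addition, 8 members rose, and 3.73% of all genes did. Every adult array lay above every juvenile RFH array in 24 members, an order seen in 16.6% of all genes, and below in 1 member, DNAJC2, an order seen in 13.3% of all genes. Between juvenile RFH and juvenile WT leaflets 0 of 57 members passed, and 0.133% of all genes did.

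The heat-inducible group had the largest median of the role groups. Of its 9 measured genes 7 rose, the other two did not pass, and the group's median difference between adult and juvenile RFH leaflets was 1.25 (log2). The 7 constitutive genes had a median of 0.41, and 3 of them rose while 4 did not pass. Between juvenile RFH and juvenile WT leaflets the medians were -0.06 for the heat-inducible and 0.00 for the constitutive genes, with none called in either group. The distance between the group medians, 0.84 for adult against juvenile RFH leaflets, was 0.63 when adult RFH replicate 1 was left out and 0.95 when replicate 4 was. It is a description of lists drawn up with earlier results of these data known, and no test was run on it.

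**Figure D1:**
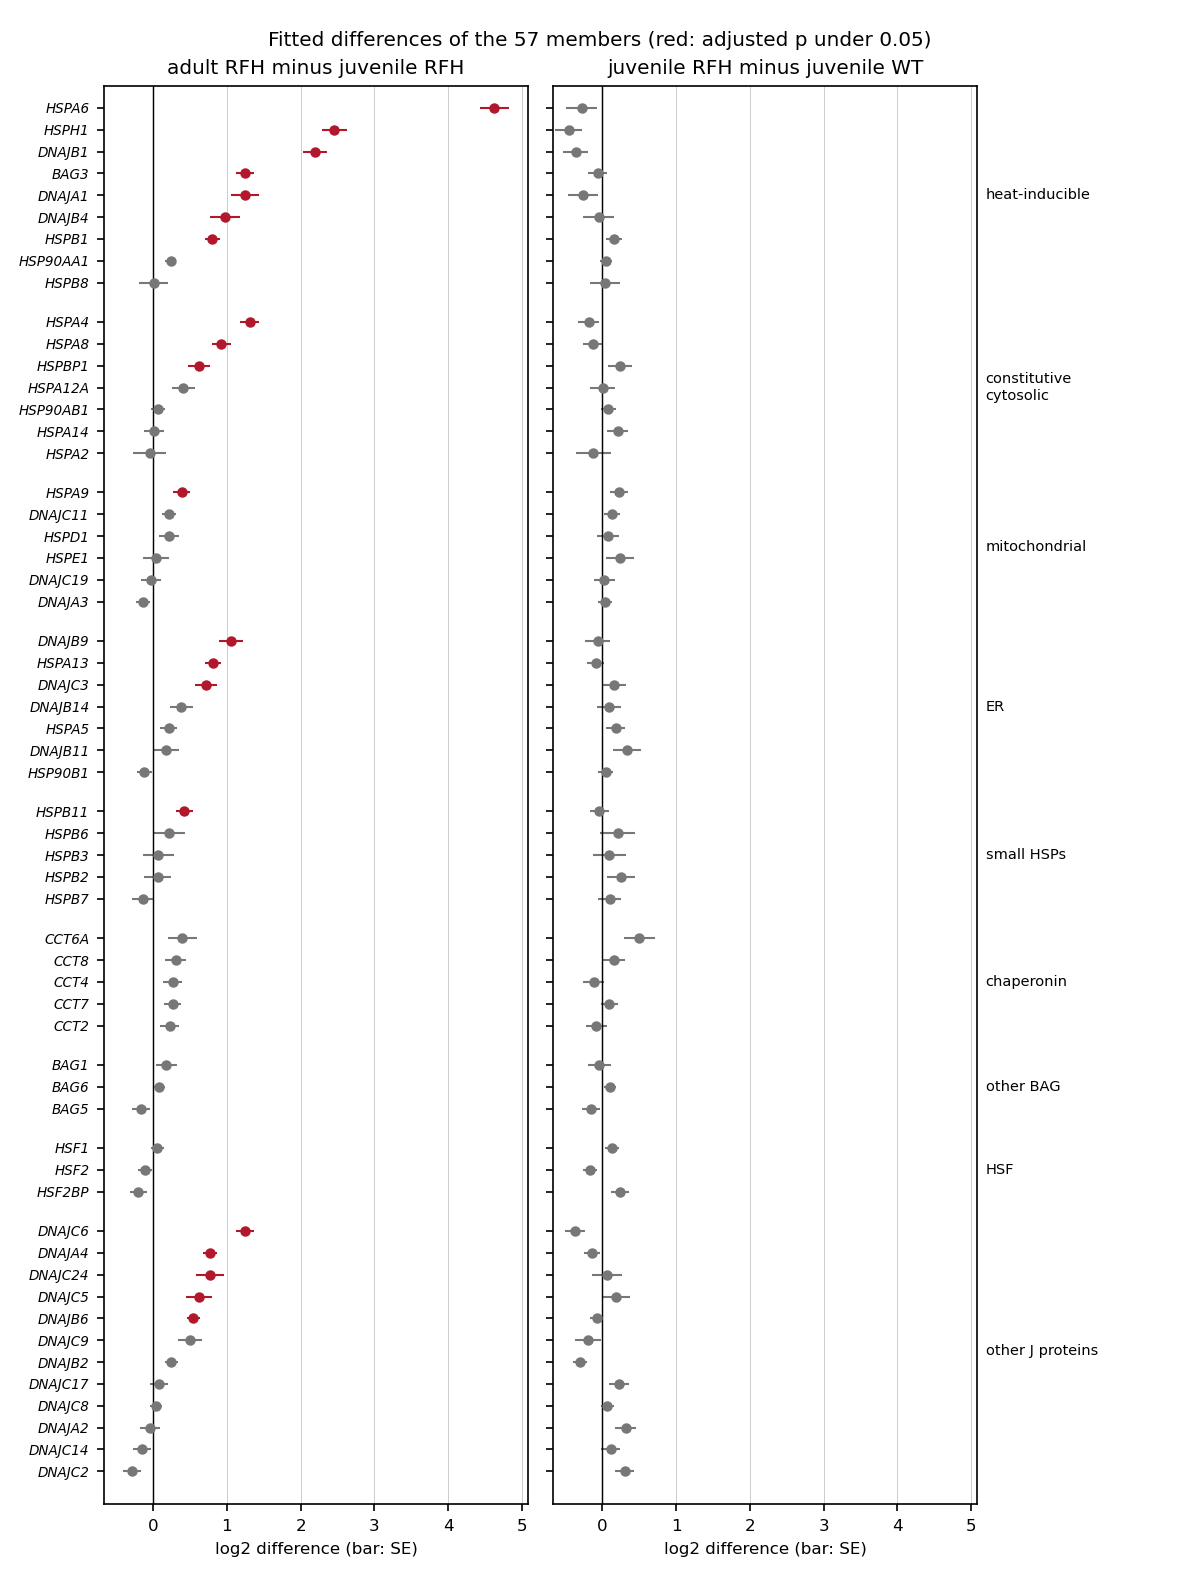
Fitted log2 difference of each of the 57 members (points, with bars for the SE) for adult RFH minus juvenile RFH (left) and juvenile RFH minus juvenile WT (right), grouped by role. Red points have an adjusted p under 0.05: 20 on the left, all above 0, led by HSPA6 at 4.62, and none on the right.

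HSPA6, a strictly stress-induced HSP70 that most unstressed cells hardly express, differed most. Its values were 12.62, 12.36, 12.18 and 11.60 on the log2 scale in adult RFH arrays, against 7.49, 7.48 and 7.72 in juvenile RFH and 7.80, 7.92 and 7.82 in juvenile WT arrays. The lowest adult array thus lay 3.87 above the highest juvenile RFH array, and the juvenile groups were close to each other. The fitted rise was 4.62 ± 0.20 (SE), or 24.7-fold (limma adjusted p = 5.36e-07). HSPA6 belongs to the HSP70 family of related genes, and whether its probes also read other members of that family was not tested.

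The main inducible HSP70 of swine is annotated as HSP70.2, for which RefSeq gives HSPA1A and HSPA1B as synonyms. Its symbol does not match the rule, so it is no member, and it was looked up because no gene with the symbol HSPA1A or HSPA1B was found on the array. Its brightest probe set read 13.95, 13.76, 13.42 and 13.35 in adult RFH arrays, against 11.38, 11.37 and 11.64 in juvenile RFH and 11.89, 12.09 and 11.97 in juvenile WT arrays. It rose by 2.16 ± 0.15 (SE, limma adjusted p = 1.86e-05) in adult against juvenile RFH leaflets. Its other two probe sets gave 2.15 ± 0.19 and 2.58 ± 0.22. All 3 HSP70.2 probe sets were lower on every juvenile RFH array than on every juvenile WT array, by 0.48 to 0.54, which did not pass (adjusted p = 0.213 to 0.447). The brightest passed with array weights (adjusted p = 0.0337) and in a fit of the juvenile arrays alone (adjusted p = 0.0405).

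HSPH1 and DNAJB1, which both act on HSP70, rose as well. HSPH1, the HSP110 protein that exchanges nucleotide on HSP70, read 12.48, 12.62, 12.16 and 12.02 in adult RFH arrays, against 9.93, 9.58 and 10.08 in juvenile RFH and 10.51, 10.33 and 10.10 in juvenile WT arrays. Its rise was 2.46 ± 0.17 (SE, limma adjusted p = 1.86e-05). DNAJB1, the HSP40 that delivers clients to inducible HSP70, read 11.86, 11.53, 11.41 and 11.00 in adult RFH arrays, against 9.22, 9.30 and 9.24 in juvenile RFH and 9.66, 9.59 and 9.62 in juvenile WT arrays. Its rise was 2.19 ± 0.16 (adjusted p = 2.79e-05). In both genes the adult arrays stood clear of the 6 juvenile arrays.

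BAG3, a nucleotide exchange factor that steers HSP70 clients to autophagy and works with HSPB8, read 12.19, 12.43, 12.29 and 11.90 in adult RFH arrays, against 10.94, 10.90 and 11.03 in juvenile RFH and 11.02, 11.05 and 10.99 in juvenile WT arrays. The 6 juvenile arrays spanned a narrow range, and all adult arrays lay above it. BAG3 rose by 1.25 ± 0.12 (SE, limma adjusted p = 0.00012), and its dimmer probe set rose by 0.94 ± 0.18 (adjusted p = 0.00686). HSPB8, its small heat shock protein partner, did not follow. It read 9.75, 9.06, 9.00 and 9.78 in adult RFH arrays, 2 above and 2 below all juvenile arrays, against 9.49, 9.45 and 9.24 in juvenile RFH and 9.30, 9.33 and 9.44 in juvenile WT arrays. The HSPB8 difference was 0.01 ± 0.20 (adjusted p = 0.989), with a 95% interval of -0.43 to 0.44.

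HSPB1 (HSP27), a small heat shock protein that also binds actin filaments, read 12.88, 13.02, 12.65 and 12.79 in adult RFH arrays, against 12.01, 12.09 and 12.00 in juvenile RFH and 11.80, 11.87 and 11.94 in juvenile WT arrays. It rose by 0.80 ± 0.10 (SE, limma adjusted p = 0.000669). DNAJB4, another HSP40 of the cytosol, read 11.08, 10.61, 11.42 and 11.19 in adult RFH arrays, against 9.85, 9.95 and 10.51 in juvenile RFH and 10.26, 10.21 and 9.99 in juvenile WT arrays. Its rise was 0.97 ± 0.20 (adjusted p = 0.00933), and only 0.10 parted the lowest adult from the highest juvenile RFH array.

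HSP90AA1, the inducible HSP90, lay near the top of the scale, which ended between 14.86 and 14.96 on the arrays. Its brightest probe set read 13.61, 13.70, 13.51 and 13.57 in adult RFH arrays, against 13.35, 13.39 and 13.34 in juvenile RFH and 13.29, 13.29 and 13.36 in juvenile WT arrays. Every adult array lay above every juvenile array, while the juvenile groups overlapped, and the adult minus juvenile RFH difference of 0.24 ± 0.08 (SE) did not pass (limma adjusted p = 0.066), though it did without adult RFH replicate 3 (0.26, adjusted p = 0.043). Of its 4 dimmer probe sets, 3 rose by 0.39 to 0.50 (adjusted p = 0.018 to 0.0268), and the fourth differed by 0.24 (adjusted p = 0.287). Whether the upper end of the scale compressed the difference was not tested.

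**Figure D2:**
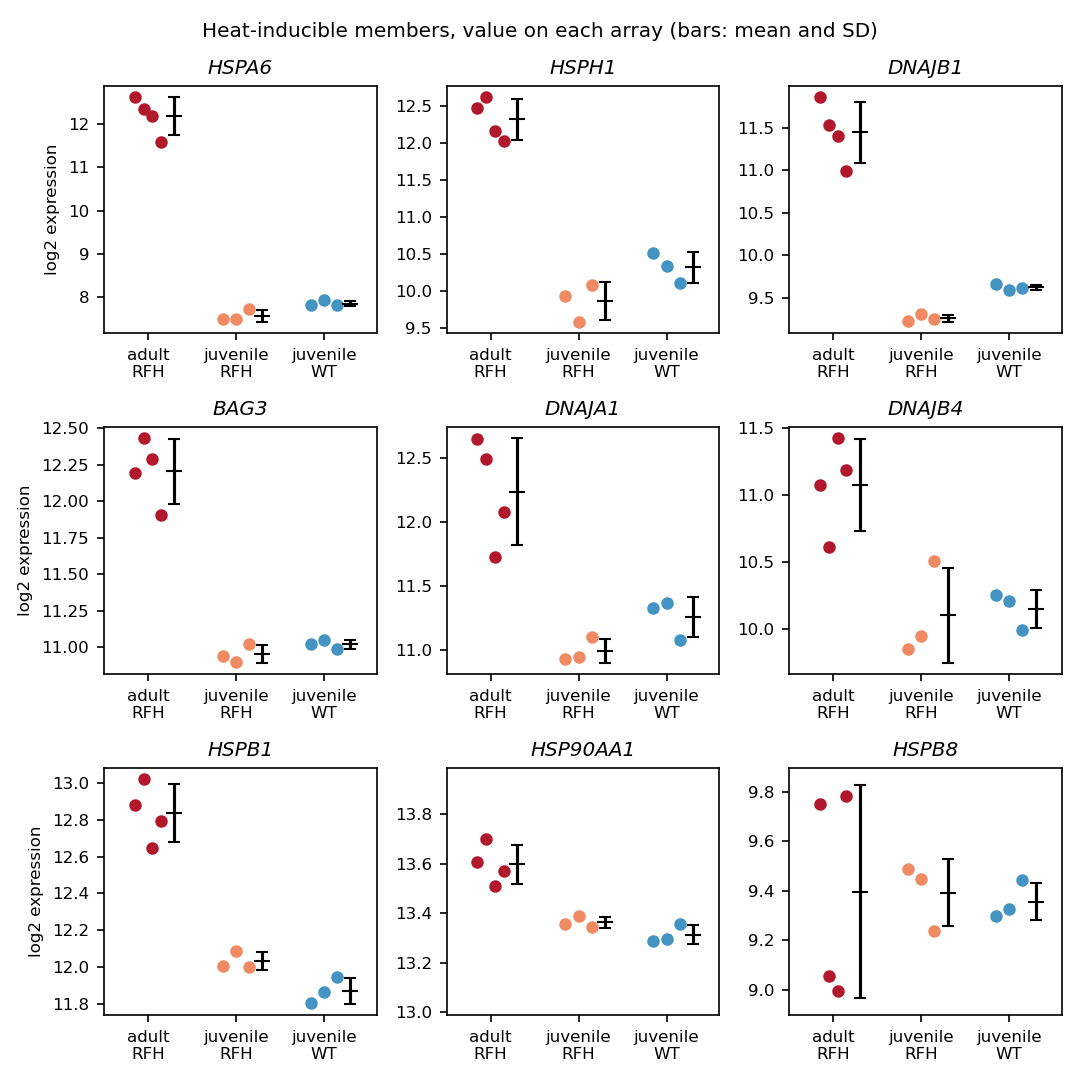
Log2 expression of the 9 heat-inducible members on each array of adult RFH, juvenile RFH and juvenile WT leaflets (points), with the group mean and SD beside them; each panel has its own scale. Adult arrays lie above all juvenile arrays in every gene shown except HSPB8, where adult values run from 9.00 to 9.78.

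Among the constitutive cytosolic genes HSPA8, HSPA4 and HSPBP1 rose, and HSP90AB1 did not pass. HSPA8 (HSC70), the housekeeping HSP70, read 13.21, 13.07, 12.70 and 12.89 in adult RFH arrays, against 12.03, 11.94 and 12.17 in juvenile RFH and 12.26, 12.20 and 12.06 in juvenile WT arrays. This probe set rose by 0.92 ± 0.13 (SE, limma adjusted p = 0.00117). The other three HSPA8 probe sets, all dimmer, went the other way, by -0.52, -0.57 and -0.58, and did not pass (adjusted p = 0.0589 to 0.157). With the mean of the gene's probe sets the HSPA8 difference was -0.19 (adjusted p = 0.457), so its direction depends on the probe set.

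HSPA4, a second HSP110-type exchange factor, rose by 1.31 ± 0.13 (SE, limma adjusted p = 0.000165). It read 9.79, 9.94, 9.80 and 9.46 in adult RFH arrays, against 8.30, 8.34 and 8.66 in juvenile RFH and 8.67, 8.63 and 8.57 in juvenile WT arrays. A second HSPA4 probe set of similar brightness, with a mean of 8.63 against 9.02, differed by 0.06 ± 0.08 (adjusted p = 0.659). HSPBP1, which also strips nucleotide from HSP70, rose by 0.63 ± 0.15 (adjusted p = 0.0177), and with juvenile RFH replicate 1 left out it did not pass (0.58, adjusted p = 0.0714).

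HSP90AB1, the constitutive HSP90, read 12.85, 12.87, 12.59 and 12.65 in adult RFH arrays, against 12.59, 12.75 and 12.68 in juvenile RFH and 12.53, 12.62 and 12.63 in juvenile WT arrays. These ranges overlapped, and the difference of 0.07 ± 0.10 (SE) did not pass (limma adjusted p = 0.687, 95% interval -0.15 to 0.28). HSPA2 (-0.05) and HSPA14 (0.01), 2 further HSP70 genes, and HSPA12A (0.41, adjusted p = 0.101) did not pass either. HSPA12A, a distant relative of HSP70, passed without juvenile RFH replicate 3 (0.59, adjusted p = 0.0329).

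**Figure D3:**
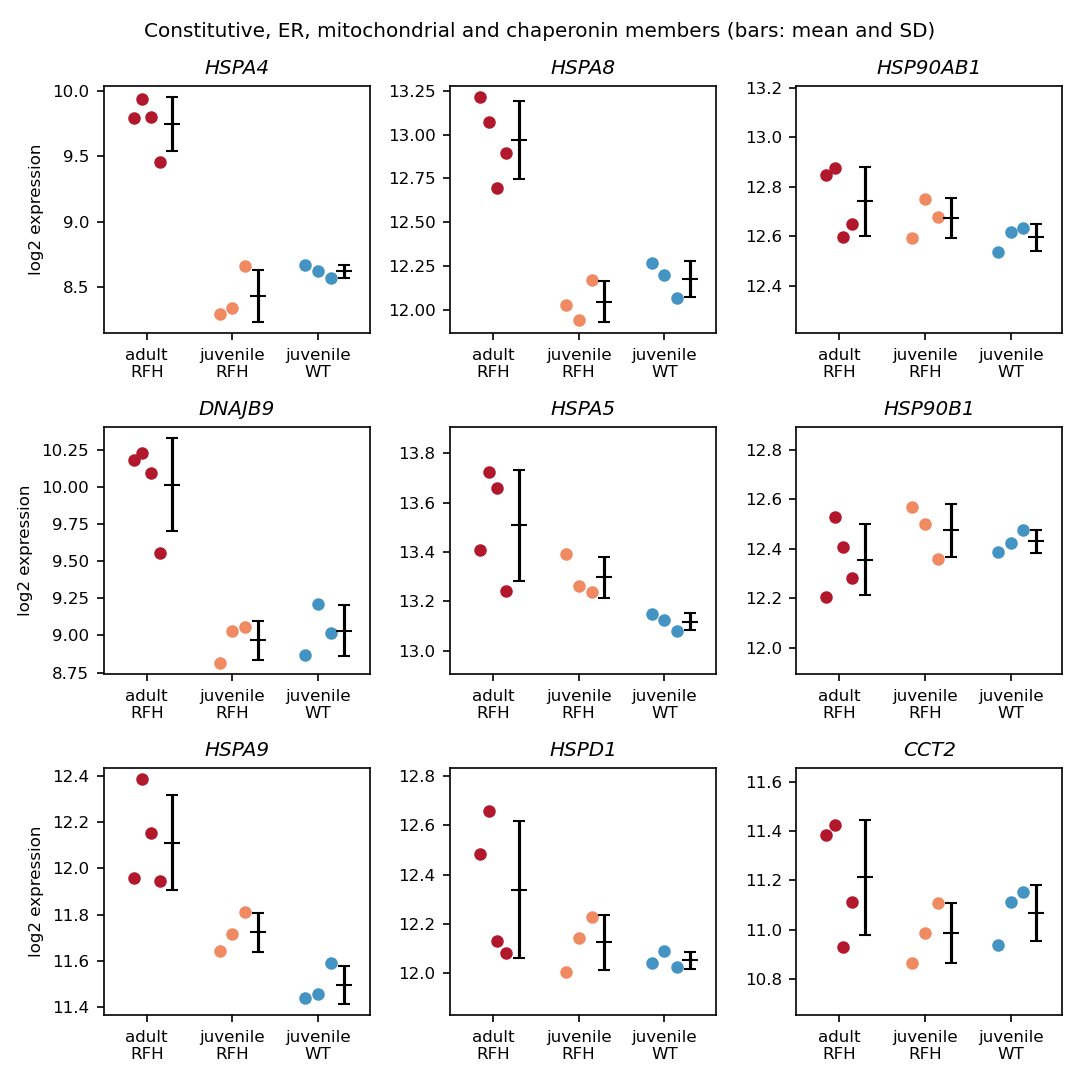
Log2 expression on each array of 9 members outside the heat-inducible group (points), with group mean and SD; each panel has its own scale, so the distances cannot be compared between panels by eye. Adult arrays lie above all juvenile RFH arrays for HSPA4, HSPA8, DNAJB9 and HSPA9, and adult and juvenile RFH arrays overlap for HSP90AB1, HSPA5, HSP90B1, HSPD1 and CCT2.

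J proteins made up 22 of the 57 members, 10 of which rose. DNAJA1, a heat-inducible HSP40 that lets HSP70 refold cytosolic proteins, read 12.65, 12.49, 11.73 and 12.08 in adult RFH arrays, against 10.93, 10.95 and 11.10 in juvenile RFH and 11.33, 11.36 and 11.08 in juvenile WT arrays. This probe set rose by 1.25 ± 0.19 (SE, limma adjusted p = 0.00236), and the dimmer DNAJA1 probe set differed by -0.05 ± 0.17 (adjusted p = 0.884). DNAJC6 (auxilin), which recruits HSC70 to strip clathrin from vesicles, read 8.25, 8.22, 7.94 and 8.04 in adult RFH arrays, against 6.67, 7.13 and 6.81 in juvenile RFH and 7.30, 7.13 and 7.28 in juvenile WT arrays. It rose by 1.24 ± 0.12 (adjusted p = 0.000195).

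Outside the heat-inducible and organelle groups, DNAJC6 and 4 other J proteins rose. DNAJA4 rose by 0.77 ± 0.10 (SE) and DNAJB6, which keeps aggregation-prone proteins soluble, by 0.55 ± 0.08 (limma adjusted p = 0.000863 and 0.00208). DNAJC24, which takes part in making the diphthamide residue of elongation factor 2, rose by 0.77 ± 0.19 (adjusted p = 0.0198). It did not pass when juvenile RFH replicate 1 (0.66, adjusted p = 0.0858) or 2 (0.71, adjusted p = 0.0651) was left out. DNAJC5, the cysteine string protein of secretory vesicles, rose by 0.62 ± 0.17 (adjusted p = 0.034). For DNAJC5 the test missed the threshold with any juvenile RFH array left out (0.125, 0.0598 and 0.0855 for replicates 1, 2 and 3), and with adult RFH replicate 1 (0.059) or juvenile WT replicate 1 (0.0524) left out. Of the remaining 7 J proteins in this group, DNAJC9, DNAJB2, DNAJC17 and DNAJC8 had differences of 0.04 to 0.50 and DNAJA2, DNAJC14 and DNAJC2 of -0.29 to -0.04, and none passed. DNAJB2, at 0.24 (adjusted p = 0.0885), passed with cyclic loess scaling (0.28, adjusted p = 0.048) and with values below 4 raised to 4 (adjusted p = 0.0482).

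In the endoplasmic reticulum DNAJB9, HSPA13 and DNAJC3 rose, 3 of 7 members, and the main chaperones HSPA5 and HSP90B1 did not pass. The median of the 7 was 0.38. DNAJB9 (ERdj4), a stress-induced J protein that acts on BiP, read 10.18, 10.23, 10.10 and 9.56 in adult RFH arrays, against 8.82, 9.03 and 9.06 in juvenile RFH and 8.87, 9.21 and 9.02 in juvenile WT arrays. DNAJB9 rose by 1.05 ± 0.16 (SE, limma adjusted p = 0.00234), and its other two probe sets differed by 0.98 (adjusted p = 0.00673) and 0.39 (adjusted p = 0.158). HSPA13, an HSP70 relative attached to microsomes, rose by 0.81 ± 0.11 (adjusted p = 0.00093). DNAJC3 (p58IPK), an inhibitor of the stress kinase PERK and a partner of BiP, rose by 0.72 ± 0.15 (adjusted p = 0.0097). The dimmer probe set of HSPA13 differed by 0.06 (adjusted p = 0.846), and that of DNAJC3 by -0.13 (adjusted p = 0.478).

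HSPA5, which encodes BiP itself, read 13.41, 13.72, 13.66 and 13.24 in adult RFH arrays, against 13.39, 13.26 and 13.24 in juvenile RFH and 13.15, 13.12 and 13.08 in juvenile WT arrays. Adult and juvenile RFH arrays overlapped (0.21 ± 0.12 SE, limma adjusted p = 0.257). HSP90B1 (GRP94), the HSP90 of this compartment, read 12.20, 12.53, 12.41 and 12.28 in adult RFH arrays, against 12.57, 12.50 and 12.36 in juvenile RFH arrays. Its difference was -0.12 ± 0.10 (adjusted p = 0.458). DNAJB11 (0.17) and DNAJB14 (0.38) did not pass, the second of which passed without adult RFH replicate 3 (0.48, adjusted p = 0.0408).

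Mitochondrial chaperones differed little. HSPA9 (mortalin), the HSP70 that pulls proteins into the mitochondrion, read 11.96, 12.38, 12.15 and 11.95 in adult RFH arrays, against 11.64, 11.72 and 11.81 in juvenile RFH and 11.44, 11.46 and 11.59 in juvenile WT arrays. It rose by 0.39 ± 0.12 (SE, limma adjusted p = 0.0449). Of the 10 arrays, only adult RFH replicates 1 and 4 could be left out with HSPA9 still passing. Leaving out juvenile RFH replicate 1, 2 or 3 gave adjusted p values of 0.147, 0.105 and 0.0791, adult RFH replicate 2 or 3 gave 0.0747 and 0.0649, and juvenile WT replicate 1, 2 or 3 gave 0.0667, 0.0697 and 0.0633. A second HSPA9 probe set rose by 0.53 ± 0.12 (adjusted p = 0.0136).

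HSPD1 (HSP60) and HSPE1 (HSP10), the barrel and lid of the mitochondrial folding chamber, are neighbouring genes in the swine genome. HSPD1 read 12.49, 12.66, 12.13 and 12.08 in adult RFH arrays, against 12.01, 12.14 and 12.23 in juvenile RFH arrays. HSPE1 read 12.41, 12.11, 11.58 and 11.74 in adult RFH arrays, against 11.81, 11.87 and 12.09 in juvenile RFH arrays. In both genes adult replicates 1 and 2 were the 2 highest adult arrays, and the differences of 0.21 ± 0.14 (SE) and 0.04 ± 0.18 did not pass (limma adjusted p = 0.33 and 0.911). DNAJC11 (0.22), DNAJC19 (-0.03) and DNAJA3 (-0.14) did not pass.

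All 5 chaperonin subunits measured had positive differences, from 0.23 for CCT2 to 0.39 for CCT6A, and none passed (lowest limma adjusted p = 0.129, for CCT7). CCT2 read 11.38, 11.42, 10.93 and 11.11 in adult RFH arrays, against 10.87, 10.99 and 11.11 in juvenile RFH and 10.94, 11.11 and 11.15 in juvenile WT arrays. Adult replicates 1 and 2 lay above replicates 3 and 4 in 4 of the 5 subunits and in 30 of the 57 members, and in 30.8% of all genes. Most marker means parted the same arrays. The macrophage mean was higher on replicates 1 and 2, at 11.51 and 11.55 against 10.93 and 10.86. So was the endothelial mean, at 9.38 and 9.60 against 8.61 and 9.18, and the lymphocyte and adipocyte means were higher there too. The valve interstitial mean was lower, at 11.70 and 11.49 against 11.87 and 11.95, and so was the smooth muscle mean. The cardiac muscle and red cell means did not part them. The part of any cell type in these values was not tested. TCP1, the CCT subunit whose symbol lies outside the rule, differed by 0.35 (adjusted p = 0.108), and by 0.44 without adult RFH replicate 3 (adjusted p = 0.0414).

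**Figure D4:**
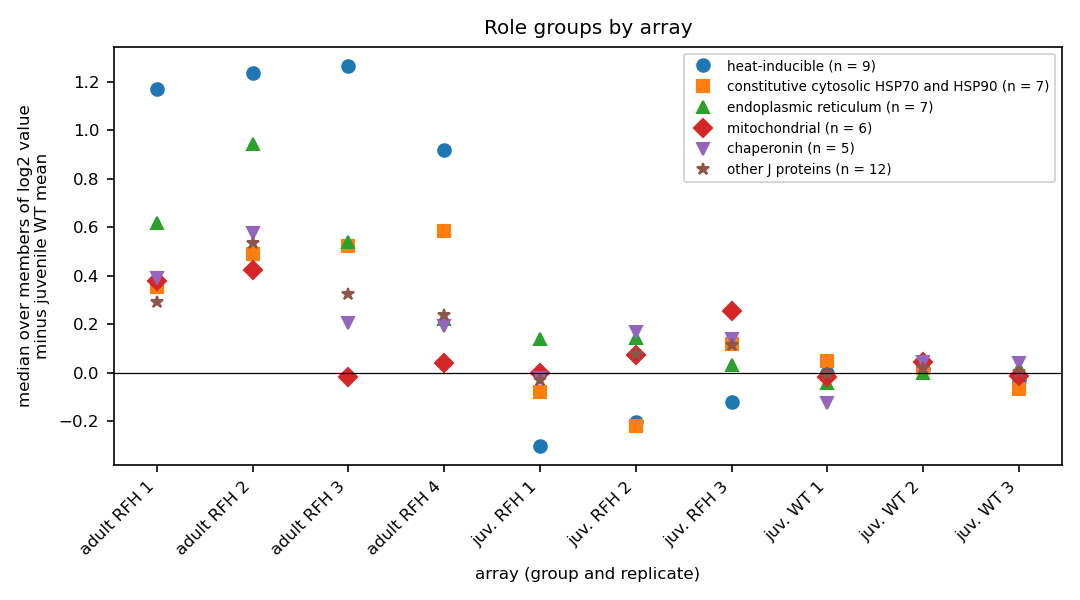
For each array, the median over the genes of a role group of the log2 value minus that gene's juvenile WT mean. The heat-inducible group stands at 0.92 to 1.27 on adult RFH arrays and at -0.30 to -0.12 on juvenile RFH arrays, and the mitochondrial and chaperonin groups are higher on adult replicates 1 and 2 than on 3 and 4.

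None of the small heat shock proteins of muscle, HSPB2, HSPB3, HSPB6 and HSPB7, passed, with differences of -0.14 to 0.21. HSPB6 (HSP20) read 10.55, 10.26, 11.42 and 10.56 in adult RFH arrays, against 10.51, 10.59 and 10.36 in juvenile RFH arrays, and HSPB3 was also highest on adult replicate 3, at 4.24 against 3.20 to 3.50 on the other adult arrays. HSPB2 was lowest on that array, at 7.66 against 7.91 to 8.54 on the other adult arrays, and HSPB7 read 6.73 against 6.39 to 6.80. The mean of 5 smooth muscle markers was highest among adult arrays on replicate 3, at 10.33 against 9.41 to 9.89, while that of the cardiac markers was not, at 5.43. On juvenile RFH arrays the smooth muscle mean was 10.07 to 10.39. The part of muscle cells in these values was not tested. Juvenile RFH replicate 2, with the cardiac transcripts, had the highest juvenile value of HSPB2 (8.17), HSPB6 (10.59), HSPB7 (7.06) and HSPB3 (3.69), the last of which lay near the bottom of the scale on every array. HSPB2 lies next to CRYAB, which encodes the small heat shock protein alpha-B crystallin. HSPB2 differed by 0.06 ± 0.18 (SE, limma adjusted p = 0.862).

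CRYAB, which is no member, read 11.98, 11.60, 11.51 and 11.63 in adult RFH arrays, against 10.68, 10.77 and 10.84 in juvenile RFH arrays, and rose by 0.92 ± 0.12 (SE, limma adjusted p = 0.000748), but not with the mean of its 2 probe sets (0.47, adjusted p = 0.0648). HSPB11 rose by 0.42 ± 0.12 (adjusted p = 0.0322). It is grouped with the small heat shock proteins by its name alone and works as a subunit of the transport machinery of cilia. HSPB11 passed with adult RFH replicate 3 left out and with no other array left out. The other nine gave adjusted p values of 0.123, 0.0801 and 0.052 for juvenile RFH replicates 1, 2 and 3, 0.0634, 0.0623 and 0.0543 for adult RFH replicates 1, 2 and 4, and 0.0505, 0.0534 and 0.0502 for juvenile WT replicates 1, 2 and 3.

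The regulators of the response differed little at the RNA level. HSF1, the factor that switches on heat shock genes and is itself controlled mainly through its protein, read 9.27, 9.41, 9.35 and 9.22 in adult RFH arrays, against 9.28, 9.26 and 9.22 in juvenile RFH and 9.01, 9.10 and 9.25 in juvenile WT arrays. The difference of 0.06 ± 0.09 (SE) did not pass (limma adjusted p = 0.703, 95% interval -0.14 to 0.25). HSF2 (-0.11) and HSF2BP, an HSF2-binding protein (-0.20), did not pass. The other BAG genes, BAG1 (0.18), BAG5 (-0.16) and BAG6 (0.08), did not pass either.

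A list of 33 further genes that are no members holds partners of the folding machinery and some other stress genes, and 28 were measured. Their median difference between adult and juvenile RFH leaflets was 0.17, against 0.02 for all genes. Of the 28, 6 rose, 1 fell and 21 did not pass, where 11.4% of all genes rose and 7.85% fell. The 6 include HMOX1, heme oxygenase and no folding gene, which was singled out after its value was seen (1.14 ± 0.34 SE, limma adjusted p = 0.0453). With 1 array left out at a time HMOX1 passed only without adult RFH replicate 3 (1.29) or 4 (1.43), and its adjusted p reached 0.152 without juvenile RFH replicate 1. STIP1 (HOP), the adaptor that joins HSP70 to HSP90, rose by 0.83 ± 0.16 (SE, limma adjusted p = 0.0076). The HSP90 partner FKBP4 rose by 0.75 ± 0.18 (adjusted p = 0.02), and did not pass with juvenile RFH replicate 1 (0.71, adjusted p = 0.0759) or 3 (0.76, adjusted p = 0.0623) left out. GRPEL1, the exchange factor of mortalin, rose by 0.54 ± 0.12 (adjusted p = 0.0121), and did not pass with juvenile RFH replicate 1 left out (0.52, adjusted p = 0.0507). SERPINH1 (HSP47), the collagen chaperone, went the other way. It read 10.71, 10.57, 10.77 and 10.89 in adult RFH arrays, against 11.91, 11.68 and 11.48 in juvenile RFH and 11.60, 11.30 and 11.43 in juvenile WT arrays, and fell by 0.96 ± 0.12 (adjusted p = 0.000904). The ubiquitin gene UBB, at 14.43 to 14.65 in RFH arrays, lay at the top of the scale (0.14, adjusted p = 0.267).

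Several probe sets read 24 of the members, and they did not always match. Of the 10 members with several probe sets that rose by the brightest, another probe set of the same gene also rose in 3, namely BAG3, DNAJB9 and HSPA9. In the other seven, DNAJA1, DNAJA4, DNAJB6, DNAJC3, HSPA13, HSPA4 and HSPA8, no second probe set passed. For CCT6A and HSP90AA1 a dimmer probe set rose and the brightest did not pass. No probe set of a member fell. Members with a single probe set include HSPA6, HSPH1, DNAJB1, HSPB1 and DNAJB4, for which no such comparison could be made. The array annotation does not say which exons or transcript ends the probe sets read, and the cause of the differences was not tested.

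**Figure D5:**
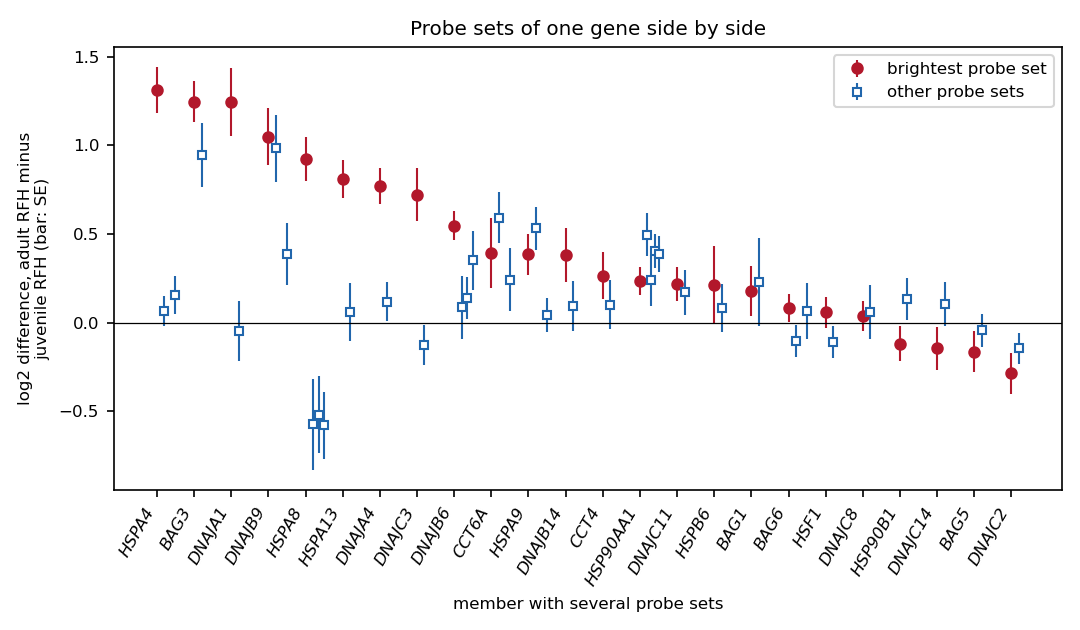
Log2 difference, adult RFH minus juvenile RFH, of every probe set of the 24 members read by several, with SE bars; filled circles are the brightest probe set of a gene and open squares the others. Both probe sets of BAG3 lie at 0.94 or above, while the dimmer HSPA8 probe sets lie at -0.52 to -0.58 and the brightest at 0.92.

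No member passed between juvenile RFH and juvenile WT leaflets in the fit of all 10 arrays (lowest limma adjusted p = 0.231, for DNAJB2). An unadjusted limma p under 0.05 was seen in 5 of 57 members, against 1019 of 6765 genes. The members' median difference was 0.06, and that of all genes 0.07. Every juvenile RFH array lay above every juvenile WT array in 15 members, 26.3% of all genes showing that order, and below in 7 members, 9.53% of all genes showing it. The 7 were HSPA6, HSPH1, DNAJB1, HSPA13, HSF2, DNAJC6 and DNAJB2. Of these HSPA6, HSPH1 and DNAJB1 are heat-inducible, with differences of -0.28 ± 0.21, -0.45 ± 0.18 and -0.36 ± 0.17 (SE). Of the 9 heat-inducible genes 1, HSPB1, lay the other way, above on every juvenile RFH array (0.16 ± 0.11 SE). The other 5 overlapped. In a fit of only the 6 juvenile arrays DNAJB1 (-0.36, adjusted p = 0.0414) and CCT6A (0.50, adjusted p = 0.0222) passed, and 872 probe sets did, against 28 when the adult arrays shared in the estimate of the spread. The median SD of a member's value was 0.22 for adult RFH, 0.11 for juvenile RFH and 0.07 for juvenile WT arrays.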

How the data were processed

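The table the authors deposited holds a log2 value for each probe set on each array, a unit read from the values. R 2.15.2 is named in the submitters' processing notes, and how background, scaling and probe summary were handled is not given in the sources used here. The 124 control probe sets were left out, which left 23999, of which 10069 carry exactly 1 symbol in the array annotation. The gene IDs of 56 members were found in the RefSeq table (Sscrofa11.1), and 0 of their symbols differed there; that of CCT6A was not found. Group means were fitted to all 10 arrays by lmFit and eBayes of limma 3.58.1, under R 4.3.3 (7 residual and 3.57 prior degrees of freedom), two-sided, with Benjamini-Hochberg adjustment over the 23999 probe sets. The fit was tested on simulated data. SE are limma's moderated ones. Differences are the first-named minus the second-named group. The number of arrays limits the precision.

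Members and lists were chosen with earlier results of these data known. All members could be named. Of the 33 other genes the text could name the 4 with the smallest p in each direction and a few fixed genes, CRYAB, UBB, TCP1 and SERPINH1 among them; 1 fixed gene is not reported here. Alternatives were quantile, median and cyclic loess scaling, a filter on dim probe sets, values below 4 raised to 4, only the 2 groups compared, a trended robust prior, array weights, a block for the replicate number, probe sets averaged per gene, a 2-fold threshold and each array left out.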

Additional observations from a re-analysis of the deposited data

Results flagged for a closer look

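Among the 4 adult RFH arrays, 3 of the 57 members had 1 array far from the other three by Dixon's ratio, 5.26% against 4.76% of all genes, and about 1 gene in 20 is picked up this way by chance. DNAJC24 stood at 8.98 on adult RFH replicate 2, against 8.22 to 8.33 on the other adult arrays. DNAJC19, a part of the import motor of mitochondria, stood at 8.71 on adult RFH replicate 1, against 8.27 to 8.28. DNAJB2 stood at 7.84 on adult RFH replicate 4, against 7.63 to 7.66.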

How the results depend on the processing

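Of the 20 members called between adult and juvenile RFH leaflets, 15 passed with each of the 10 arrays left out in turn, 12 passed under all 20 alternatives other than the 2-fold threshold, and HSPA8 alone turned, to -0.19 when probe sets were averaged per gene. The count of called members ran from 15 (without juvenile RFH replicate 1) to 21 (without adult RFH replicate 3) over the left-out arrays, all up and 0 down, that of heat-inducible members from 7 to 8, and it was 8 with a 2-fold threshold added. The distance between the heat-inducible and constitutive medians ran from 0.63 to 0.95 over the left-out arrays for adult against juvenile RFH, and from -0.13 to -0.05 for juvenile RFH against WT. HSP90AA1 passed with values below 4 raised to 4 (adjusted p = 0.0139), with the trended robust prior (0.0339) and with the mean of its probe sets (0.35, adjusted p = 0.0158). With probe sets averaged per gene DNAJB6, DNAJC3, HSPA9 and CRYAB did not pass. Of 1862 values of uncalled members under the alternatives, 58 changed sign with neither value past the threshold.

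All probe sets called between adult and juvenile RFH leaflets numbered 4025 (1927 up, 2098 down), 2308 (1159 up, 1149 down) with only the 2 groups compared and 905 (558 up, 347 down) with a 2-fold threshold. Over the left-out arrays they ran from 2243 (without juvenile RFH replicate 1) to 4965 (without adult RFH replicate 3), 1052 to 2382 up and 1079 to 2583 down. Between juvenile RFH and WT leaflets 28 passed (12 up, 16 down). The count was 6 (3 up, 3 down) without dim probe sets, 10 (3 up, 7 down) with values below 4 raised to 4, 872 (455 up, 417 down) with only the 2 groups compared and 1171 (557 up, 614 down) with array weights, and 2 to 71 (0 to 32 up, 2 to 39 down) over the left-out arrays. Members called there were 0, and 2 (1 up, 1 down) with only the 2 groups compared.

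With the replicate block, 19 members rose between adult and juvenile RFH leaflets, HSPB11 being lost, and 17 probe sets (5 up) passed between juvenile RFH and WT. Deviations of same-numbered arrays correlated across probe sets at -0.16 to 0.19. With so few arrays in a group, these values do not settle whether the numbers pair the arrays. Arrays give no counts. Values near 4 or above 13 lie toward the ends of the scale, with array minima of 2.01 to 2.21 and maxima of 14.86 to 14.96.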
